A study of Mus musculus with 2 samples.

Results

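The genes described here are 10 receptors that guide immune cells through tissue: Ccr7, Ccr2, Ccr3, Ccr9, Xcr1, Cx3cr1, Cxcr4, Cxcr3, Gpr183 and S1pr1. They were chosen by name from the 27032 genes of the count tables, with no measured value in the rule but with earlier results of these data known. All 10 were present in both tables. The study asked how marginal metallophilic macrophages and Langerin+ type 1 conventional dendritic cells (cDC1s) of the mouse spleen communicate. For this, 2 samples of spleen cells from wild-type mice were enriched with magnetic beads for CD11c, an integrin on dendritic cells (DCs), and single cells were sequenced on the BD Rhapsody platform. The labels give no age, treatment or number of mice per sample, so the p-values below measure only the spread between these 2 samples, which may be technical.

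Most of these receptors are G protein-coupled receptors that make a cell crawl up a gradient of a chemokine, a small secreted protein. Gpr183 and S1pr1 answer lipids instead, an oxysterol and sphingosine-1-phosphate. In the spleen, such gradients sort cells between the red pulp, the marginal zone, the B-cell follicles and the T-cell zone, and a DC that matures changes its receptors as it moves to the T cells.

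The tables held 3308 and 3085 cells with 46953398 and 43137746 unique molecular identifiers (UMIs, 1 per captured transcript), and no cell barcode occurred in both. After quality filters, 2928 and 2725 cells remained, with a median of 12220 and 11435 UMIs per cell. Cells were placed in classes by the UMIs of a few gate genes, none of them a receptor of the list, and the first gate met decided: 293 and 130 macrophages (Vcam1 and C1qb), 292 and 352 mature DCs (Fscn1 and H2-Aa), 914 and 782 cDC1s (Clec9a), 10 and 9 cells of a Siglech/Tcf4 gate, 61 and 162 B cells (Cd79a), 38 and 153 T cells (Cd3e), 35 and 32 natural killer (NK) cells (Ncr1), 462 and 376 cells of a Clec4a4 gate and 346 and 269 cells of a Clec10a/Cd209a gate. Here and below, a pair of values is that of replicate 1 and then of replicate 2. The other 477 and 460 cells met no gate, and 607 and 563 cells met more than 1. A marker counted as raised when its level was over 2-fold the mean of the other classes. Of the markers listed for each class, 10 of 10 were raised in macrophages, 10 of 11 in mature DCs (Ccl17 was not), 9 of 9 in cDC1s and 7 of 7 in each of the B, T and NK cell classes. The 10 macrophage markers were C1qa, C1qc, Slc40a1, Hmox1, Spic, Cd5l, Fcna, Mertk, Adgre1 and Axl. The study defined marginal metallophilic macrophages by Siglec1. That gene set no gate here, so the macrophage class is not read as those cells. Of the 9 cDC1 markers, 5 were highest in cDC1s, and Cd8a, Batf3, Cadm1 and Itgae were higher in another class. Only 3 of 9 plasmacytoid DC markers were raised in the Siglech/Tcf4 gate, and 2 of 6 in the Clec4a4 and in the Clec10a/Cd209a gate, so these last classes are called by their gate. Other cells with enough Siglech and Tcf4 UMIs met an earlier gate and stayed there, 26 and 26 in mature DCs, 12 and 11 in cDC1s and 0 and 1 in macrophages, so values of this gate rest on few cells. Bead enrichment sets the share of each class among the cells, which is not read as its share of the spleen.

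Receptor levels are given as UMIs per 1000000 UMIs of all cells of a class in a sample (CPM). The median UMIs per cell ran from 6166.5 in the T cells of replicate 1 to 19313 in its macrophages, so shares of cells with a UMI are given after each cell was thinned to 4000 UMIs, which left out at most 12 cells of a class and sample. Intervals around shares are exact binomial 95% intervals and cover counting error only. Where no cell had a UMI, the limit given is the share that 3 cells would make, and it limits cells with a captured UMI and not cells that express the gene. Differences between classes are log2 fold changes with their standard error from 1 edgeR fit of the 18 class sums over 12560 genes, and were called at a Benjamini-Hochberg adjusted p under 0.05. Where taking 1 sample alone moved a called fold by more than 1.5 times, the values of both samples alone follow it.

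Several of the 10 genes are neighbours in the mouse genome (GRCm38). Ccr9 (chr9:123678439-123784330, plus strand), Xcr1 (chr9:123852315-123862029, minus strand), Ccr3 (chr9:124021972-124031689, plus strand) and Ccr2 (chr9:124101950-124113557, plus strand) form a cluster that spans 435 kb, and Cx3cr1 lies on the same chromosome (chr9:119901616-120069879, minus strand). The others are Ccr7 (chr11:99144196-99155077), Cxcr4 (chr1:128588199-128592293), Cxcr3 (chrX:101731535-101734269), Gpr183 (chr14:121952551-121965195) and S1pr1 (chr3:115710433-115715072), all on the minus strand. In the GENCODE M21 annotation, the gene models of Ccr9, Cx3cr1 and Gpr183 overlap 6, 9 and 1 other genes, and of these 2, 3 and 0 lie on the same strand. Reads in the overlaps could have been counted to either gene, and the sources used here do not say whether the counting was stranded.

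Promoter sequence is shown for 3 receptors whose patterns differ: the neighbours Xcr1 and Ccr3, whose starts lie 159.9 kb apart and which were each high in a single but different class, and Cxcr4, which was present in every class. RefSeq held a promoter entry for 8 of the 10 receptors, and only these 3 windows of 200 bases before the start held no annotated exon. The windows are given 5′ to 3′ on the strand of the gene, at chr9:123862030-123862229 for Xcr1 (minus), chr9:124021771-124021970 for Ccr3 (plus) and chr1:128592300-128592499 for Cxcr4 (minus), all in GRCm38.p6.
Xcr1: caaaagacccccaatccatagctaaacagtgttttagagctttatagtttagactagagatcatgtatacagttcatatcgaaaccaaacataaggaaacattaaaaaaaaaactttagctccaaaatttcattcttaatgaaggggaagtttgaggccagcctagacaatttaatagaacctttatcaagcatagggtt
Ccr3: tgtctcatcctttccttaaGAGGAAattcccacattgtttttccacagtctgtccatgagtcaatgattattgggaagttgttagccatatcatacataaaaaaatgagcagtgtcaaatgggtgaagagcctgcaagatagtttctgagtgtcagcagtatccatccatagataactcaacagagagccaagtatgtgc
Cxcr4: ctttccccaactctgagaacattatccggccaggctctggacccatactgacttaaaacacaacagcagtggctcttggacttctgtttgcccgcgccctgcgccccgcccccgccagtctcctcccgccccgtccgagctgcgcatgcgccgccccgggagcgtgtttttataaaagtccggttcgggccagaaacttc

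Capitals mark the only match, on either strand, to 4 short motifs: GAGGAA, an ETS core, which 19.0% of 32851 promoter windows of this length held, TGTGGT, a Runx core (11.2%), CAGCTG, an E-box (10.9%), and the interferon-stimulated response element core, GAAA repeated after 2 bases (2.27%). The Cxcr4 window was 61% G and C, against 33.5% in the Xcr1 window and 40% in the Ccr3 window. A match is a description of these letters and not a binding site.

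Ccr7, the receptor for CCL19 and CCL21 that leads mature DCs and naive T cells into the T-cell zone, was highest in mature DCs. It reached 403 and 611 CPM there, 147 and 106 in T cells, 67.8 and 156 in B cells, 28.6 and 36.7 in cDC1s, 20.04 and 38.9 in the Clec4a4 gate, 13.1 and 16.9 in the Clec10a/Cd209a gate and 6.15 and 3.26 in macrophages. Both mature DC values lay above every other class, and T cells and B cells overlapped. Mature DCs exceeded T cells by 2.12 ± 0.35 (adjusted p = 6.87e-05) in a pair in which 32.3% of all genes tested were called. T cells and B cells differed by −0.04 ± 0.39 (adjusted p = 0.986). B cells exceeded cDC1s by 1.74 ± 0.34 (adjusted p = 0.000371, with 36.9% of genes called, and 1.08 and 1.83 in each sample alone). The NK cells had no Ccr7 UMI in replicate 1, 0 of 35 cells (an upper limit of 8.57% of cells), and 12.2 CPM in replicate 2, and the Siglech/Tcf4 gate had 51.4 CPM and then 0 of 9 cells (an upper limit of 33.3%).

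Not every mature DC carried a Ccr7 UMI, and only 137 of 292 and 168 of 352 cells of the class met no other gate. The shares below were not taken in those cells alone. After thinning, 38.3% (32.7 to 44.1) and 41.8% (36.6 to 47.2) of mature DCs had one, against 0.683% and 0.781% of macrophages, the class taken to lack it. Unthinned, the shares were 47.3% and 50.6% in mature DCs, at a median of 12029.5 and 11421.5 UMIs per cell, and 2.73% and 2.31% in macrophages, at 19313 and 18136.5. T cells followed with 36.1% and 25.2% and B cells with 22.8% and 36.8%, whereas cDC1s had 4.52% and 5.45%. Mature DCs with the transcript held a median of 5 and 7.5 unthinned UMIs of it and T cells 2 and 2, where T cells were shallower (6166.5 and 6408 UMIs per cell).

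Gpr183, the oxysterol receptor also known as EBI2 that positions cDC2s in the bridging channels and B cells at the follicle edge, was low in macrophages, cDC1s and NK cells and higher in the other classes. Its level was 531 and 589 CPM in the Siglech/Tcf4 gate, 424 and 402 in mature DCs, 260.0 and 279 in the Clec10a/Cd209a gate, 242 and 266 in the Clec4a4 gate, 170.4 and 283 in B cells and 256 and 144 in T cells. NK cells had 88.5 and 32.4 CPM, cDC1s 49.6 and 53.3, and macrophages 4.52 and 6.93. The 6 upper classes all lay above the 3 lower ones in both samples.

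At the top of the Gpr183 order the samples of neighbouring classes did not overlap, but the steps did not pass the test. The Siglech/Tcf4 gate and mature DCs differed by 0.26 ± 0.25 (adjusted p = 0.689, with 2.63% of genes called), and mature DCs and the Clec10a/Cd209a gate by 0.58 ± 0.20 (adjusted p = 0.0652, with 11.7% of genes called), where blocking on the sample made the call (adjusted p = 0.0112). T cells exceeded NK cells by 1.63 ± 0.36 (adjusted p = 0.00588, and 1.64 and 2.28 in each sample alone). The step from cDC1s to macrophages was the clearest, 3.17 ± 0.31 or a ratio of 8.99 (adjusted p = 2.57e-08, with 48.4% of genes called). A UMI was found in 63.1% and 56.4% of thinned mature DCs, 50.6% and 52.4% of the Clec10a/Cd209a gate, 46.9% and 48.9% of the Clec4a4 gate, 14.4% and 15.2% of cDC1s and, lowest, 1.37% and 1.56% of macrophages. The unthinned shares were 78.4% and 70.5% in mature DCs and 4.78% and 4.62% in macrophages.

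S1pr1, the sphingosine-1-phosphate receptor that lymphocytes use to leave lymphoid tissue, was a lymphocyte transcript in these cells. B cells had 327 and 370.3 CPM and T cells 284 and 301, and both lay above all other classes in both samples. They differed from each other by 0.27 ± 0.31 (adjusted p = 0.616, with 17.6% of genes called). T cells exceeded NK cells (33.6 and 12.2 CPM) by 3.72 ± 0.55, a ratio of 12.8 (adjusted p = 0.000133, and 3.19 and 4.75 in each sample alone). In the remaining classes the level did not exceed 7.51 CPM, with 0 UMIs in the Siglech/Tcf4 gate, in 0 of 462 cells of the Clec4a4 gate in replicate 1, which allows up to 0.649%, and in 0 of 269 cells of the Clec10a/Cd209a gate in replicate 2, which allows up to 1.115%. In the few cells of the Siglech/Tcf4 gate, a count of 0 allows up to 25.7 and 26.8 CPM (3 UMIs per sample). A UMI was found in 70.2% and 61.3% of thinned B cells and 63.9% and 60.3% of thinned T cells, against 0% of thinned cells of the Clec4a4 and Clec10a/Cd209a gates. Unthinned, the shares were 82.0% and 73.5% in B cells, at a median of 7418 and 6724 UMIs per cell, and 0% and 0.266% in the Clec4a4 gate, at 11872 and 11845.

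Xcr1, the receptor for the chemokine XCL1 from NK and activated CD8+ T cells and the defining surface receptor of cDC1s, was high in cDC1s and low elsewhere. Its level was 820.1 and 845 CPM in cDC1s, 31.6 and 71.9 in mature DCs, 6.10 and 20.3 in NK cells and at most 17.9 in any other class. The gap from cDC1s to mature DCs was 4.12 ± 0.27, a ratio of 16.1 (adjusted p = 5.39e-10, with 28.7% of genes called, and 4.85 and 3.67 in each sample alone). Mature DCs also exceeded NK cells, by 2.25 ± 0.70 (adjusted p = 0.026, with 20.1% of genes called). That step fell to 0.70 with all gate thresholds doubled (adjusted p = 0.503) and turned to −0.56 when only cells meeting a single gate were used (adjusted p = 0.641).

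Among thinned cDC1s, 69.4% (66.3 to 72.4) and 67.4% (64.0 to 70.7) had an Xcr1 UMI, against 5.56% and 1.99% of T cells, taken to lack it. Unthinned, 74.4% and 71.4% of cDC1s had one, at a median of 16793 and 18105.5 UMIs per cell, and 10.5% and 3.92% of T cells, at 6166.5 and 6408. The median cDC1 with the transcript held 17 and 20 UMIs, and 602 and 519 cells held 5 or more. Outside cDC1s, the level was 0.843% to 6.22% of that in cDC1s, and in each class the median of the 9 listed cDC1 markers stood at a larger percentage of its cDC1 level (3.28% to 13.1%).

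Cxcr3, the receptor for the interferon-induced chemokines CXCL9 and CXCL10, was present in NK cells, T cells and cDC1s. NK cells had 64.1 and 97.2 CPM, T cells 38.6 and 83.4, cDC1s 26.7 and 26.6, and macrophages 6.15 and 3.26, while all other classes stayed at or under 3.48 CPM. Among these, the Siglech/Tcf4 gate had 0 UMIs, which allows up to 25.7 and 26.8 CPM (3 UMIs per sample). NK and T cells overlapped and differed by 0.07 ± 0.39 (adjusted p = 0.988, with 6.49% of genes called). The level of cDC1s was below that of T cells by −1.22 ± 0.31 on the log2 scale (adjusted p = 0.00465, with 33.6% of genes called, and −0.24 and −1.41 in each sample alone). It exceeded the Clec10a/Cd209a gate by 3.56 ± 0.41, a ratio of 11.6 (adjusted p = 2.13e-06, with 20.1% of genes called, and 3.09 and 4.20 in each sample alone), and macrophages by 2.29 ± 0.35 (adjusted p = 1.69e-05). Among thinned cells, 9.03% and 9.22% of cDC1s had a UMI, against 1.75% and 0% of B cells. Unthinned, the shares were 28.1% and 28.5% in cDC1s, at 16793 and 18105.5 UMIs per cell, and 3.28% and 0.617% in B cells, at 7418 and 6724.

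Ccr9, the receptor for the gut and thymus chemokine CCL25, is best known from plasmacytoid DCs and gut-homing T cells. It reached 25.7 and 179 CPM in the Siglech/Tcf4 gate, 65.7 and 60.3 in cDC1s, 42.1 and 35.8 in T cells, 23.9 and 39.9 in mature DCs, 26.1 and 6.50 in B cells, 11.2 and 18.7 in the Clec10a/Cd209a gate and 6.96 and 8.89 in the Clec4a4 gate. Macrophages had 1.81 and 3.67 CPM and NK cells 0 and 4.05. The Siglech/Tcf4 gate lay both below and above cDC1s, and the difference was 0.36 ± 0.56 (adjusted p = 0.777, with 8.96% of genes called). When that gate was asked first, a setting chosen after seeing the data, it exceeded cDC1s by 1.24 (adjusted p = 0.00235), whereas in cells that met a single gate the difference was −1.46 (adjusted p = 0.297). The difference between cDC1s and T cells was 0.90 ± 0.41 (adjusted p = 0.101). A UMI was present in 15.6% (13.3 to 18.2) and 17.4% (14.8 to 20.3) of thinned cDC1s, against 0.683% and 0.781% of macrophages. Unthinned, these were 36.1% and 37.3% against 1.71% and 3.85%, at 16793 and 18105.5 UMIs per cDC1 and 19313 and 18136.5 per macrophage.

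Ccr2, the receptor for CCL2 that brings monocytes out of the bone marrow, was highest in NK cells, with 399.6 and 421 CPM. The Clec10a/Cd209a gate had 187 and 159.6 CPM, cDC1s 139 and 168, T cells 35.1 and 98.7, mature DCs 32.7 and 61.1, the Clec4a4 gate 11.9 and 6.82, and macrophages 2.53 and 11.4. The Siglech/Tcf4 gate was at 0 of 10 cells in replicate 1, which allows up to 30%, and at 411 CPM in replicate 2, and B cells had 1 UMI in replicate 1 and 0 of 162 cells in replicate 2, which allows up to 1.85%. NK cells and the Siglech/Tcf4 gate differed by 1.06 ± 0.65 (adjusted p = 0.375, with 9.06% of genes called).

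The Clec10a/Cd209a gate and cDC1s had overlapping Ccr2 levels, and the Clec10a/Cd209a and Clec4a4 gates were far apart. NK cells differed from the Clec10a/Cd209a gate by 1.06 ± 0.45 (adjusted p = 0.11, with 19.9% of genes called, and 0.0369 with the sample as a block). The difference between cDC1s and T cells was 1.07 ± 0.49 (adjusted p = 0.101, and 0.0299 with the block). Mature DCs exceeded the Clec4a4 gate by 2.32 ± 0.52 (adjusted p = 0.00414, with 11.3% of genes called, and 1.44 and 3.15 in each sample alone). This step was not called by DESeq2 (adjusted p = 0.277) or in cells that met a single gate (1.29, adjusted p = 0.108). Among thinned cells, 53.1% and 51.6% of NK cells, 21.6% and 23.0% of the Clec10a/Cd209a gate, 22.9% and 24.5% of cDC1s and 2.17% and 1.87% of the Clec4a4 gate had a UMI, against 1.75% and 0% of B cells. Unthinned, 60% and 62.5% of NK cells had one, at a median of 7535 and 6717.5 UMIs per cell, and 1.64% and 0% of B cells, at 7418 and 6724.

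Cx3cr1, the receptor for fractalkine that marks monocytes and many monocyte-derived and patrolling cells, was spread over many classes. Its level was 103 and 295 CPM in the Siglech/Tcf4 gate, 97.7 and 88.1 in the Clec10a/Cd209a gate, 9.15 and 158 in NK cells, 64.9 and 74.8 in mature DCs, 47.0 and 49.2 in cDC1s, 24.2 and 68.1 in macrophages and 28.9 and 19.8 in the Clec4a4 gate. T cells had 10.5 and 23.8 CPM and B cells 1.74 and 4.87. None of the 8 neighbouring steps passed the test, although blocking on the sample made the call between macrophages and the Clec4a4 gate (1.03 ± 0.44, adjusted p = 0.0569 without it and 0.0304 with it). The first step, from the Siglech/Tcf4 to the Clec10a/Cd209a gate, was 0.86 ± 0.62 (adjusted p = 0.576, with 2.80% of genes called). The Clec10a/Cd209a gate and mature DCs differed by 0.45 ± 0.38 (adjusted p = 0.573), and by 1.91 in cells that met a single gate (adjusted p = 0.000437). A UMI was found in 21.9% and 18.2% of thinned cells of the Clec10a/Cd209a gate, 14.8% and 13.5% of mature DCs and 12.1% and 11.7% of cDC1s, against 0% and 1.29% of B cells. Of thinned macrophages, 4.10% and 7.81% had a UMI. In this class, 1 cell per sample held 56 of the 134 and 59 of the 167 unthinned Cx3cr1 UMIs. Unthinned, 31.8% and 30.5% of the Clec10a/Cd209a gate had one, at 10538 and 10222 UMIs per cell, and 1.64% and 1.85% of B cells, at 7418 and 6724.

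Ccr3, the eotaxin receptor best known from eosinophils, was high in macrophages and at most 7.66 CPM in every other class. Macrophages had 1869 and 1436 CPM, and the next class, T cells, 3.51 and 7.66. The difference was 8.15 ± 0.29, a ratio of 296 (adjusted p = 2.28e-13, with 45.2% of genes called, and 9.36 and 7.75 in each sample alone). All other classes had at most 3.91 CPM, with 0 of 35 and 0 of 32 NK cells, with limits of 8.57% and 9.38%, and 0 UMIs in the Siglech/Tcf4 gate. These counts of 0 allow up to 9.15 and 12.2 CPM in NK cells and 25.7 and 26.8 CPM in that gate (3 UMIs per sample). In the 6 other classes with a UMI, Ccr3 stood at 0.102% to 0.338% of its macrophage level, and the median of the 10 listed macrophage markers at 0.190% to 0.754% of theirs.

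Nearly every macrophage had a Ccr3 UMI. The share was 95.6% (92.5 to 97.6) and 87.5% (80.5 to 92.7) of thinned macrophages, against 1.75% and 1.29% of B cells, taken to lack it. Unthinned, it was 98.0% and 94.6% of macrophages, at 19313 and 18136.5 UMIs per cell, and 1.64% and 1.23% of B cells, at 7418 and 6724. The median positive macrophage held 31 and 23 Ccr3 UMIs, and 274 of 293 and 116 of 130 held 5 or more.

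Cxcr4, the receptor for the stromal chemokine CXCL12 that holds cells in bone marrow and lymphoid niches, was the most even of the 10. B cells had 278 and 476 CPM, the Siglech/Tcf4 gate 248 and 169.7, the Clec10a/Cd209a gate 185 and 199.6, T cells 169 and 196, mature DCs 169.8 and 160.1, NK cells 85.4 and 211, the Clec4a4 gate 132 and 163, cDC1s 127 and 148 and macrophages 70.7 and 117. No neighbouring step was called. B cells and the Siglech/Tcf4 gate differed by 1.06 ± 0.37 (adjusted p = 0.0727, with 12.3% of genes called, and 0.0367 with the sample as a block), and cDC1s and macrophages by 0.50 ± 0.24 (adjusted p = 0.0954, and 0.0112 with the block). A UMI was found in 47.4% and 72.9% of thinned B cells and, lowest, in 17.7% and 31.2% of macrophages. The unthinned shares were 70.5% and 82.1% of B cells, at 7418 and 6724 UMIs per cell, and 37.5% and 50.8% of macrophages, at 19313 and 18136.5.

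**Figure D1:**
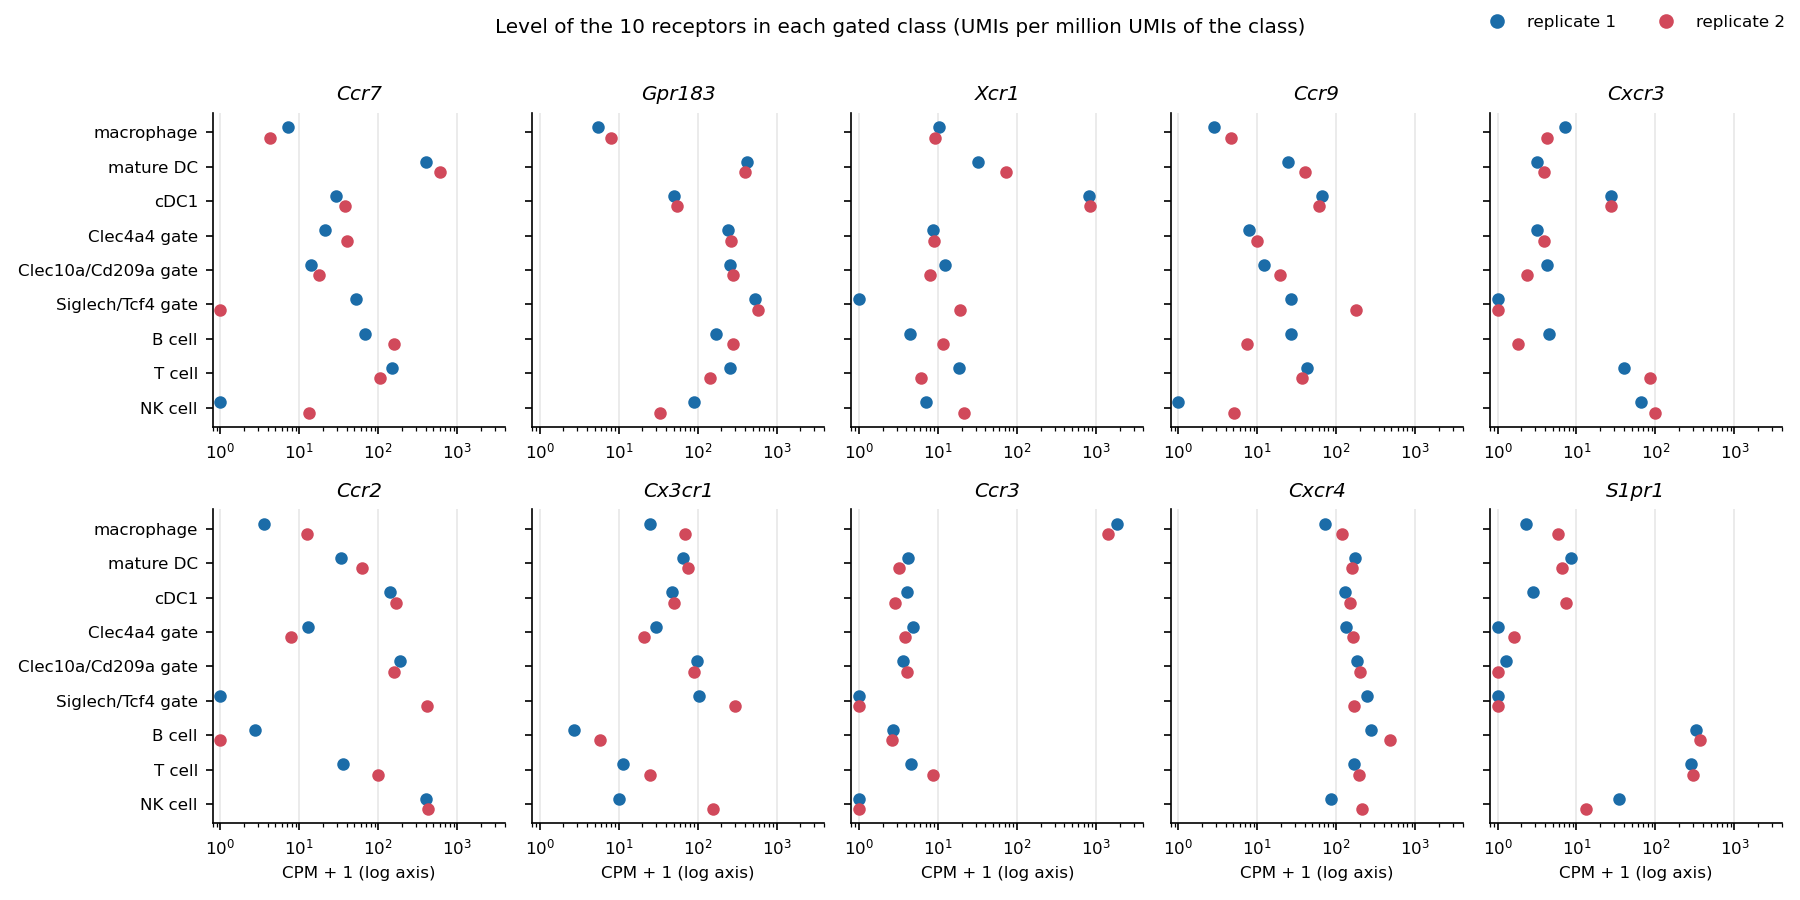
Level of each receptor in the 9 gated classes, 1 point per sample, as CPM plus 1 on a log axis. Ccr3 stands out in macrophages (1869 and 1436 CPM), Xcr1 in cDC1s (820.1 and 845) and S1pr1 in B and T cells, whereas the Cxcr4 points lie between 70.7 and 476 CPM in every class.

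**Figure D2:**
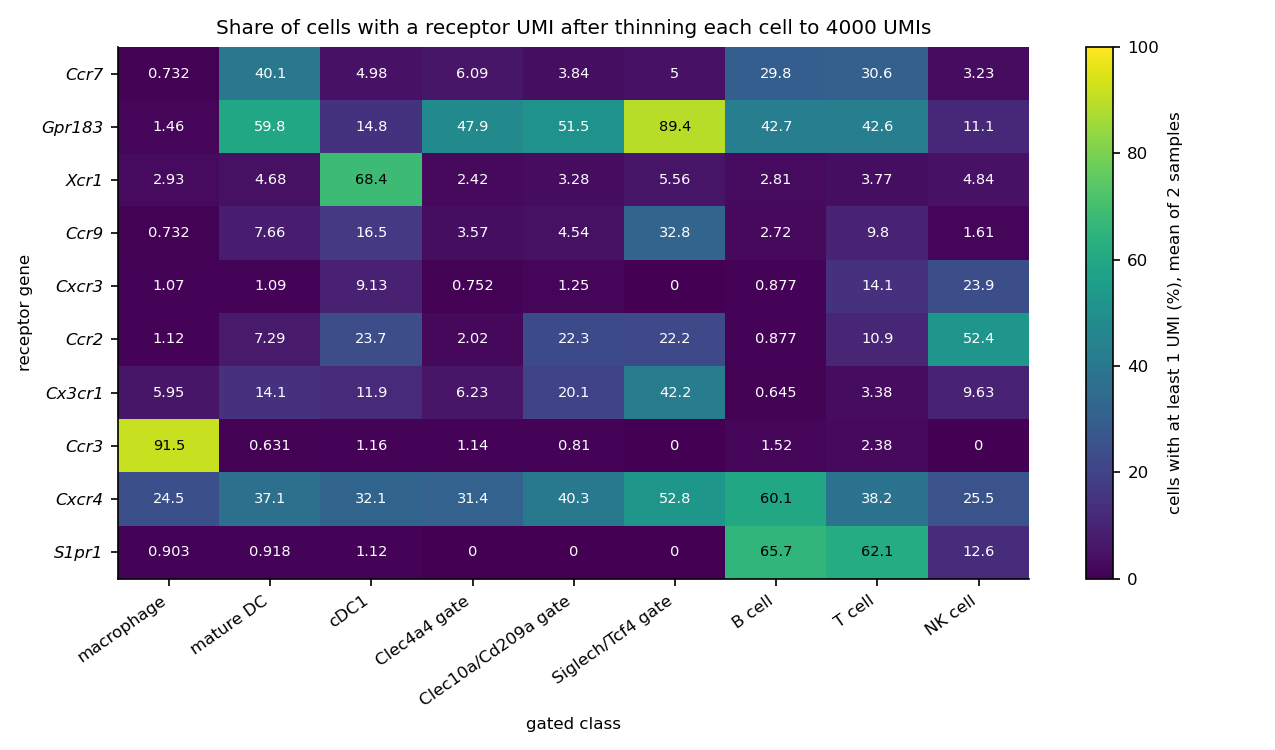
Percentage of cells of each class with at least 1 UMI of a receptor after thinning to 4000 UMIs, as the mean of both samples, with the value printed in each cell of the grid. The highest values stand for Ccr3, found in 95.6% and 87.5% of macrophages, for Gpr183, in 90.0% and 88.9% of the few cells of the Siglech/Tcf4 gate, and for Xcr1, in 69.4% and 67.4% of cDC1s.

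Over all 36 pairs of classes, the receptors differed in how far they told classes apart. Gpr183 was called in 27 of the 36 pairs, S1pr1 in 23, Ccr2 in 22, Ccr7 and Cxcr3 in 21, Ccr9 in 19, Xcr1 and Cx3cr1 in 14, Cxcr4 in 10 and Ccr3 in 8. Over all genes and pairs, 24.2% were called, against 75% of pairs for Gpr183, 27.8% for Cxcr4 and 22.2% for Ccr3. The 8 pairs of Ccr3 are those with macrophages.

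Setting each class against the mean of the 8 others gave 90 tests of the receptors, of which 26 were called higher and 10 lower. Blocking on the sample also gave 36 calls, with 2 lost and 2 gained. Counts of receptors are set below beside the share of all genes called in the same direction. The gates themselves are genes of these cells, and the classes are not independent of each other, since each is part of the others' reference.

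Mature DCs had 4 receptors higher and 0 lower, where 16.3% of all genes were higher and 4.68% lower, and the median over the 10 receptors was 0.78, against 0.09 over all genes. Ccr7 was higher by 4.35 ± 0.22 (adjusted p = 6.63e-12, and 4.69 and 5.38 in each sample alone), Gpr183 by 1.85 ± 0.14 (adjusted p = 3.11e-09), Xcr1 by 1.73 ± 0.27 (adjusted p = 6.9e-05) and Ccr9 by 1.19 ± 0.33 (adjusted p = 0.0118). The Xcr1 value turned to −0.94 in cells that met a single gate (adjusted p = 0.143), and that of Ccr9 was not called there (0.66, adjusted p = 0.243). Cx3cr1 passed with the sample as a block only (adjusted p = 0.0829 without it and 0.0295 with it).

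In cDC1s 4 receptors were higher and 1 lower, beside 19.2% and 10.2% of all genes, with a median of 0.32 over the receptors and 0.10 over all genes. Xcr1 was higher by 6.37 ± 0.18 (adjusted p = 4.37e-16, and 7.29 and 6.23 in each sample alone), Ccr9 by 2.42 ± 0.26 (adjusted p = 2.6e-07, and 3.24 and 2.09) and Ccr2 by 2.33 ± 0.33 (adjusted p = 1.33e-05, and 3.62 and 2.45). DESeq2 did not call Ccr2 here (2.27, adjusted p = 0.0543). Cxcr3 had no UMI in the Siglech/Tcf4 gate, and without that class, left out after seeing the data, it was higher by 2.13 (adjusted p = 4.03e-07). Gpr183 was lower, by −1.38 ± 0.18 (adjusted p = 3.05e-06). Over all genes the split moved with the scaling: 2416 higher and 1286 lower genes became 1803 and 1963 without TMM factors and 2292 and 1941 in DESeq2.

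Macrophages had 1 receptor higher, Ccr3, and 4 lower, where 30.7% of all genes were higher and 18.2% lower. The median over the receptors was −0.83, against 0.13 over all genes. Gpr183 was lower by −4.95 ± 0.28 (adjusted p = 3.17e-12), Ccr7 by −2.84 ± 0.62 (adjusted p = 0.000617, and −1.80 and −2.92 in each sample alone), Ccr9 by −2.75 ± 0.87 (adjusted p = 0.0125) and Cxcr4 by −0.77 ± 0.20 (adjusted p = 0.00325). Without TMM factors the median of all genes moved from 0.13 to −0.11 and the split over all genes from 3852 higher and 2282 lower to 3006 and 3249, and the receptors kept their directions and calls.

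The 3 lymphocyte classes differed from each other. B cells had 4 receptors higher and 2 lower, beside 16.8% and 11.4% of all genes (median −0.40 over the receptors and 0.10 over all genes). Ccr7 was higher by 2.00 ± 0.33 (adjusted p = 7.49e-05, and 1.80 and 3.01 in each sample alone), Cxcr4 by 1.31 ± 0.18 (adjusted p = 1.06e-05), Gpr183 by 0.93 ± 0.17 (adjusted p = 0.00032) and S1pr1, without the Siglech/Tcf4 class, by 6.26 (adjusted p = 2.19e-12). Cx3cr1 was lower by −3.87 ± 0.83 (adjusted p = 0.00112), and Ccr2, with 1 UMI in all, was called lower (adjusted p = 0.00036), a call lost in cells that met a single gate.

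T cells had 4 receptors higher and 0 lower, beside 16.5% and 10% of all genes (median 1.26 and 0.12). Ccr7 was higher by 1.96 ± 0.36 (adjusted p = 0.000309, and 2.92 and 2.41 in each sample alone), Ccr9 by 1.41 ± 0.47 (adjusted p = 0.0306, and 2.20 and 0.98), and, without the Siglech/Tcf4 class, S1pr1 by 5.94 (adjusted p = 3.04e-11) and Cxcr3 by 3.39 (adjusted p = 4.66e-08). NK cells had 2 higher and 2 lower, beside 9.24% and 5.54% of all genes (median −0.63 and −0.00). Ccr2 was higher by 3.61 ± 0.43 (adjusted p = 3.4e-06, and 4.88 and 3.53 in each sample alone) and Cxcr3, without the Siglech/Tcf4 class, by 3.48 (adjusted p = 2.63e-06), whereas Gpr183 was lower by −1.34 ± 0.31 (adjusted p = 0.00425, and −0.90 and −2.45 in each sample alone). Ccr7, with 0 and 3 UMIs, was called lower in NK cells (adjusted p = 0.0419), and the call was lost under 4 alternatives (adjusted p = 0.0511 to 0.0901).

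In the classes named by their gates, Gpr183 was the receptor called higher in each. The Clec10a/Cd209a gate had 3 higher and 0 lower, beside 11.9% and 3.33% of all genes (median 0.09 and 0.04): Ccr2 by 2.42 ± 0.35 (adjusted p = 2.97e-05, and 4.01 and 2.30 in each sample alone), Cx3cr1 by 1.33 ± 0.32 (adjusted p = 0.00539, and 2.32 and 0.99) and Gpr183 by 1.20 ± 0.15 (adjusted p = 4.9e-06). Ccr7 passed only with the block (adjusted p = 0.0596 without it and 0.0284 with it). DESeq2 did not call Ccr2 (adjusted p = 0.0646) or Cx3cr1 (adjusted p = 0.179) there. The Clec4a4 gate had 1 higher and 1 lower, beside 13.8% and 5.20% (median −0.91 and 0.05). Gpr183 was higher by 1.06 ± 0.15 (adjusted p = 1.92e-05) and Xcr1 lower by −1.36 ± 0.46 (adjusted p = 0.0438, and −0.44 and −1.43 in each sample alone), a call lost with the block (adjusted p = 0.0557). The Siglech/Tcf4 gate had 3 higher and 0 lower, beside 2.69% and 1.66% (median −0.27 and −0.25). These were Ccr9 by 2.83 ± 0.68 (adjusted p = 0.0186, and 1.21 and 3.50 in each sample alone), Cx3cr1 by 2.30 ± 0.65 (adjusted p = 0.048, and 0.0511 with the block) and Gpr183 by 2.14 ± 0.24 (adjusted p = 9.17e-06). Ccr9 had 3 UMIs in 2 cells in replicate 1, and its call was lost in cells that met a single gate (1.19, adjusted p = 0.629). The Cx3cr1 call was also lost with all gate thresholds doubled (1.89, adjusted p = 0.114).

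Within the cDC1 class, cells with and without a Ccr2 UMI carried different receptors. In the 2 samples, 273 and 271 cDC1s had a Ccr2 UMI and 641 and 511 had none. Of 9 receptors tested besides Ccr2, 2 were higher and 4 lower in the cells with Ccr2, where 9.76% of 11743 genes were higher and 9.58% lower. Cells with Ccr2 were shallower, with a median of 14381 and 15833 UMIs against 18222 and 19314.

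Cx3cr1 stood at 143 and 130.1 CPM in cDC1s with Ccr2 and at 11.4 and 11.2 in those without, a difference of 3.48 ± 0.11 (adjusted p = 5.78e-08). Gpr183 had 92.8 and 89.2 CPM against 33.7 and 36.4, 1.26 ± 0.10 (adjusted p = 1.97e-05). Both were high in the cells with Ccr2 in each sample, with no overlap. Ccr7 went the other way, 5.56 and 6.34 CPM against 37.1 and 50.9, −3.00 ± 0.22 (adjusted p = 7.98e-06). Xcr1 was present on both sides, at 554 and 625 CPM with Ccr2 and 919 and 949 without, −0.78 ± 0.06 (adjusted p = 1.89e-05). After thinning, 42.3% and 38.6% of the cDC1s with a Ccr2 UMI also had an Xcr1 UMI, against 69.4% and 67.4% of all cDC1s.

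The remaining receptors changed less or rested on few UMIs. Ccr9 had 59.0 and 50.5 CPM against 68.1 and 65.0, −0.40 ± 0.11 (adjusted p = 0.0282), a call lost in DESeq2, in thinned cells and in cells that met a single gate (adjusted p = 0.0933 to 0.107). S1pr1 had 1 and 5 UMIs in cells with Ccr2 against 28 and 85 in those without (adjusted p = 0.0224). In replicate 1 that is a ratio of 10.4, with an exact 95% counting interval of 1.71 to 424, and the call was lost when all deposited cells were used (adjusted p = 0.161). Cxcr4, at 148 and 177 CPM against 119 and 134, and Cxcr3, at 23.4 and 22.3 against 27.9 and 28.6, passed only with the sample as a block (adjusted p = 0.127 and 0.0529 without it, and 0.00489 and 0.0242 with it), and Cxcr4 turned to −0.20 in cells that met a single gate. Ccr3 was not called (adjusted p = 0.680).

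Markers of other cells moved with this split. Of the 6 markers listed for CLEC10A+ cDC2s, 5 were higher in the cDC1s with Ccr2, where their summed level was 1986 and 2744 CPM against 387 and 362, and of the 9 cDC1 markers 8 were lower, 4560.3 and 4661 against 6770.1 and 6875. Monocyte markers were higher for 4 of 5 tested, 898 and 866 CPM against 717 and 667, and neutrophil markers for 3 of 3, at 378 and 11.4 CPM against 3.26 and 2.46. Plasmacytoid DC markers were higher for 5 of 7 tested (536 and 573 CPM against 362 and 364), NK cell markers for 3 of 6 (132 and 130.1 against 29.9 and 55.1) and macrophage markers for 5 of 10, with 1 lower (214 and 322 against 185 and 163). Their part in the result was not tested. The Clec9a gate alone was met by 159 and 159 of the 273 and 271 cDC1s with Ccr2. Without Ccr2, it was 560 and 423 of 641 and 511. In these cells, Cx3cr1, Gpr183, Ccr7 and Xcr1 kept their directions and calls. The 5 genes that changed most upward, among those of at least 50 CPM on a side, were S100a8 and Ngp, which were high in replicate 1 only (121 and 130.3 CPM, against 3.94 and 2.62 in replicate 2), the lectin gene Mgl2 (4.53), the chemokine gene Ccl9 (3.76) and Cx3cr1 itself. Downward they were Il12b, a subunit of interleukin-12 (−2.90), Dkk3 (−2.73), Apol7c (−2.35), the heme oxygenase gene Hmox1 (−2.34) and Serpinb6b (−2.24).

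The same split of the Clec10a/Cd209a gate, 96 and 74 cells with a Ccr2 UMI against 250 and 195 without, gave 2 receptors higher and 2 lower of 6 tested, where 4.81% of 9330 genes were higher and 4.67% lower. Cx3cr1 had 246 and 236 CPM with Ccr2 and 41.3 and 28.6 without, 2.77 ± 0.18 (adjusted p = 4.97e-06). Cxcr4 had 276 and 248 CPM against 151 and 180.2, 0.68 ± 0.14 (adjusted p = 0.00916). Ccr7 was lower, at 1.93 and 3.62 CPM against 17.3 and 22.3 (adjusted p = 0.00649). The cells with Ccr2 held only 2 and 3 Ccr7 UMIs, so the ratios of 8.97 and 6.16 have counting intervals of 2.35 to 76.2 and 1.98 to 31.0.

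Gpr183 was also lower in the cells of this gate with Ccr2, at 198 and 217 CPM against 284 and 305, −0.50 ± 0.12 (adjusted p = 0.0236). That call was lost in thinned cells (−0.03, adjusted p = 0.952), in DESeq2 (adjusted p = 0.0857) and when at least 2 Ccr2 UMIs were asked (adjusted p = 0.0666). Ccr9 (1.07 ± 0.42, adjusted p = 0.153) and Xcr1 (0.60 ± 0.71, adjusted p = 0.689) were not called, and Ccr3, Cxcr3 and S1pr1 had too few UMIs to be tested. Of the markers, 4 of 6 of the CLEC10A+ cDC2 list were higher (summed 2554 and 2217 CPM against 849 and 814), 3 of 6 of the DCIR2+ cDC2 list lower (596 and 523 against 999 and 1096), and 4 of 5 monocyte markers tested higher (865 and 993 against 693 and 668). Of 5 plasmacytoid DC markers tested, 4 were higher (625 and 604 against 445 and 513). Their part in the result was not tested. Among the 5 genes with the largest rise were Ahnak (4.73), Mgl2 (3.25) and Padi2 (3.08), and those with the largest fall were Dtx1 (−4.23), Scn3a (−3.59), Abcb1a (−3.42), Ccdc192 (−3.33) and Pglyrp1 (−3.22).

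The difference between both Ccr2 splits was tested directly. Over 11282 genes, 3.35% had a higher split in cDC1s and 3.10% a lower one. Gpr183 rose with Ccr2 in cDC1s and fell in the Clec10a/Cd209a gate, a difference of 1.75 ± 0.15 (adjusted p = 2.21e-05). For Ccr9 the difference was −1.47 ± 0.38 (adjusted p = 0.0402), not called in thinned cells (adjusted p = 0.0798) or in cells that met a single gate (adjusted p = 0.0542). Cx3cr1 differed by 0.70 ± 0.22 (adjusted p = 0.0794, and 0.0455 with the block), Cxcr4 by −0.45 ± 0.18 (adjusted p = 0.177), Xcr1 by −1.44 ± 0.61 (adjusted p = 0.205) and Ccr7 by −0.15 ± 0.77 (adjusted p = 0.948), and the last turned positive under 3 alternatives.

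The cDC1s that the study is about express Langerin, encoded by Cd207. Of the cDC1s, 117 and 108 had a Cd207 UMI and 797 and 674 had none, and the former were deeper, with a median of 22289 and 23259.5 UMIs against 16230 and 17208.5. All 10 receptors were tested, of which 1 was higher and 5 lower in the cells with Cd207, where 3.05% of 11644 genes were higher and 4.29% lower. With the sample as a block, 7 receptors were called, and calls over all genes rose from 854 to 1862.

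Cx3cr1 was nearly absent from cDC1s with Cd207: 0.811 and 0.806 CPM against 55.5 and 59.3 (−6.00 ± 0.26, adjusted p = 5.47e-05). The 2 UMIs in each sample give ratios of 68.4 and 73.5, with counting intervals of 18.9 to 566 and 20.3 to 608. Ccr2 had 14.2 and 13.7 CPM against 162 and 199.9 (−3.57 ± 0.17, adjusted p = 6.54e-05), and Gpr183 6.08 and 2.42 against 57.6 and 64.0 (−3.71 ± 0.27, adjusted p = 0.000422, and −3.10 and −4.56 in each sample alone). Cx3cr1 and Gpr183, which were higher in cDC1s with a Ccr2 UMI, and Ccr2 itself were thus all lower in the cells with Cd207, in both samples.

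Xcr1 was higher in the cDC1s with Cd207, at 999 and 1157 CPM against 788 and 780.0 (0.59 ± 0.07, adjusted p = 0.00307). Cxcr4 was lower, at 81.1 and 79.4 CPM against 135 and 162 (−0.76 ± 0.11, adjusted p = 0.0084). In cells that met a single gate, neither was called (0.29, adjusted p = 0.0712, and −0.45, adjusted p = 0.0590). Ccr7 was lower, at 12.2 and 5.65 CPM against 31.6 and 43.2 (−1.94 ± 0.32, adjusted p = 0.0119, and −1.24 and −2.80 in each sample alone), and was not called in thinned cells (−0.93, adjusted p = 0.490) or when at least 2 Cd207 UMIs were asked (adjusted p = 0.0598). Ccr9, at 87.1 and 64.9 CPM against 61.7 and 59.4, passed only with the block (adjusted p = 0.111 and 0.00301). Cxcr3 (0.32 ± 0.13, adjusted p = 0.215), Ccr3 and S1pr1 were not called.

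The markers of this split ran opposite to those of the Ccr2 split. Of 9 cDC1 markers 7 were higher (summed 7831 and 8174 CPM against 5870 and 5747), and of 6 CLEC10A+ cDC2 markers 5 were lower (281 and 240 against 917 and 1308). The Clec9a gate alone was met by 114 and 102 of the 117 and 108 cDC1s with Cd207. Without Cd207, it was 605 and 480 of 797 and 674. The part of these markers and of cells that met another gate in the result was not tested. The genes that changed most downward were Ccl9 (−6.78), Cx3cr1, the NADPH oxidase subunit Cybb (−5.49) and Ptgs2 (−5.44), beside a gate gene that is not reported. Upward they were Itgae, encoding the CD103 integrin (104 and 124 CPM against 36.2 and 47.0, 1.58), Fndc5 (1.09), Serpinb6b (1.09), Trabd2b (1.07) and Jdp2 (1.06).

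**Figure D3:**
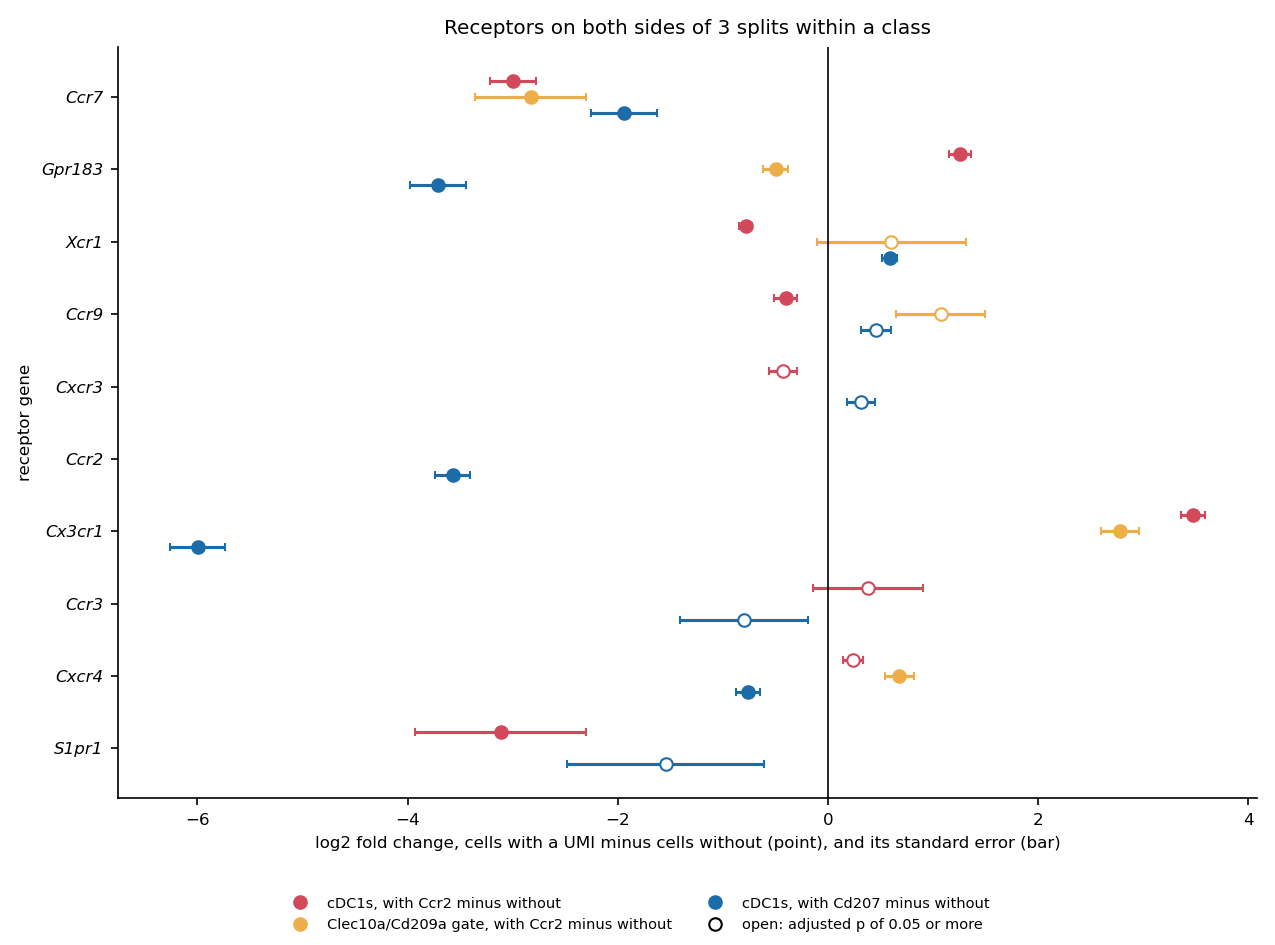
Log2 fold change of each receptor between cells with and without a UMI of the splitting gene, for the Ccr2 split of cDC1s, the Ccr2 split of the Clec10a/Cd209a gate and the Cd207 split of cDC1s. Points are the fitted values, bars their standard errors, and open points have an adjusted p of 0.05 or more. Cx3cr1 lies at 3.48 and 2.77 in the Ccr2 splits and at −6.00 in the Cd207 split, and Gpr183 changes side between the Ccr2 splits.

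A split of the Siglech/Tcf4 gate by Ccr9 held 2 and 5 cells with a UMI against 8 and 4 without. Of 1197 genes tested, edgeR called 0.00% higher and 0.00% lower, with 65 at an unadjusted p under 0.05, and the DESeq2 counts were 0 and 24. The 4 receptors with enough UMIs (Ccr2, Cx3cr1, Cxcr4 and Gpr183) were not called.

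Single cells of the cDC1 class were also compared at equal depth, by which receptors were found in the same cell. Before thinning, 719 of 914 and 582 of 782 of them met the Clec9a gate alone, and pairs were not counted in those alone. In 908 and 770 cDC1s thinned to 4000 UMIs, Ccr2 and Cx3cr1 were found together in 75 and 67 cells, where the product of both shares gives 25.2 and 22.1. Cx3cr1 and Gpr183 were found together in 44 and 35 cells against 15.9 and 13.7, and Ccr2 and Gpr183 in 58 and 58 against 30.0 and 28.7. Each pair of these 3 receptors was thus found together more often than the product in both samples. The pairs with Ccr2 come from the same cells as the Ccr2 split and are not separate evidence.

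Xcr1 paired with Ccr9 and Cxcr3 instead. It was found with Cxcr3 in 77 and 66 cells against a product of 56.9 and 47.9, so that 93.9% and 93.0% of cDC1s with Cxcr3 also had Xcr1, and with Ccr9 in 123 and 109 against 98.5 and 90.3. Xcr1 and Cx3cr1 were found together in only 16 and 7 cells against 76.3 and 60.7, and Xcr1 and Gpr183 in 25 and 31 against 90.9 and 78.9. Xcr1 and Ccr2 were found together in 88 and 73 cells against 144 and 127. Cx3cr1 and Cxcr3 were found together in 0 of 908 and 0 of 770 cells, against 9.93 and 8.30. Xcr1 and Ccr7 were found together in 14 and 13 cells against 28.4 and 28.3.

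**Figure D4:**
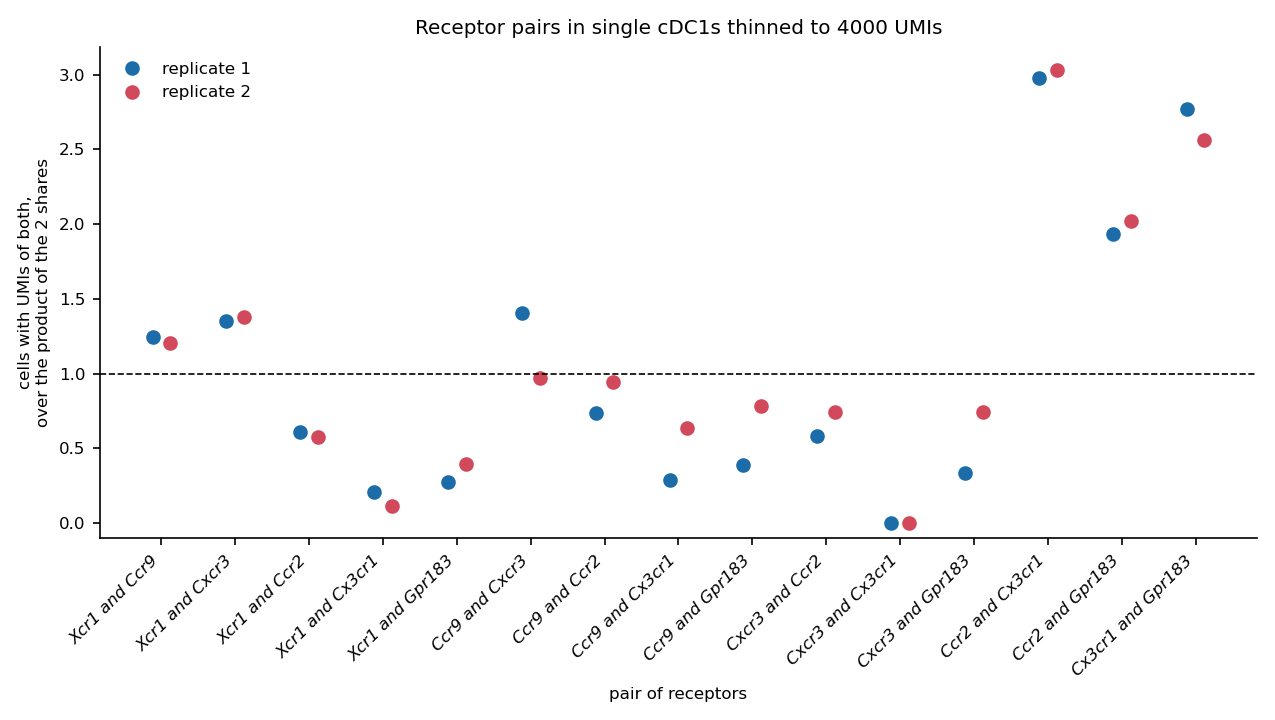
Cells of the thinned cDC1 class with UMIs of both receptors of a pair, divided by the product of the shares, for 15 pairs and both samples. The dashed line marks a ratio of 1. Ccr2 with Cx3cr1 lies at 2.98 and 3.03, Xcr1 with Cx3cr1 at 0.21 and 0.12, and Cx3cr1 with Cxcr3 at 0.

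In mature DCs, Ccr7 and Gpr183 were found together in 70 of 290 and 82 of 349 thinned cells, at the product of their shares (70.0 and 82.4). Ccr7 and Cx3cr1 were found together in 4 and 10 cells, against 16.5 and 19.7.

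The partners of these receptors were read from lists of other receptors, ligands and signalling genes. Of 21 other migration receptors listed, 19 were in the tables and 17 were tested, and 7 were higher and 2 lower in mature DCs, 7 and 3 in B cells, 6 and 1 in T cells, 5 and 0 in NK cells, 4 and 3 in the Clec4a4 gate, 3 and 1 in the Clec10a/Cd209a gate, 3 and 2 in macrophages, 1 and 1 in cDC1s and 0 and 0 in the Siglech/Tcf4 gate. Of all genes, 16.3% were higher and 4.68% lower in mature DCs, 16.8% and 11.4% in B cells, 16.5% and 10% in T cells and 9.24% and 5.54% in NK cells. These shares were 13.8% and 5.20% in the Clec4a4 gate, 11.9% and 3.33% in the Clec10a/Cd209a gate and 30.7% and 18.2% in macrophages. In cDC1s they were 19.2% and 10.2%, and in the Siglech/Tcf4 gate 2.69% and 1.66%. The median fold over the list ran from −2.59 in the Siglech/Tcf4 gate to 1.61 in B cells, against −0.25 and 0.10 over all genes there. Cxcr5, which takes B cells into follicles, had 247 and 305 CPM in B cells. S1pr5, the receptor by which NK cells leave tissue, had 131 and 267 CPM in NK cells. Gpr132 had 694 and 802 CPM in mature DCs, and Cmklr1, the chemerin receptor, 82.1 and 75.5 in macrophages.

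Of 25 ligands and ligand enzymes listed, 18 were in the tables and 12 were tested, and 7 were higher and 2 lower in macrophages, 5 and 0 in mature DCs, 4 and 1 in NK cells, 3 and 1 in cDC1s, 2 and 2 in T cells and 1 and 5 in B cells. Each of the 3 remaining gates had 1 higher and 0 lower. Of all genes, 30.7% were higher and 18.2% lower in macrophages, 16.3% and 4.68% in mature DCs and 16.8% and 11.4% in B cells. These shares were 9.24% and 5.54% in NK cells, 19.2% and 10.2% in cDC1s and 16.5% and 10% in T cells. In the Siglech/Tcf4, Clec4a4 and Clec10a/Cd209a gates, 2.69%, 13.8% and 11.9% were higher and 1.66%, 5.20% and 3.33% lower. The list median was 0.76 in macrophages, 0.90 in mature DCs and −2.33 in B cells, against 0.13, 0.09 and 0.10 over all genes. Xcl1, the ligand of Xcr1, had 903 and 782 CPM in NK cells and 77.3 and 206 in T cells. Cxcl9, a ligand of Cxcr3, had 614 and 809 CPM in cDC1s and 80.3 and 322 in macrophages, and Ccl24, an eotaxin that binds Ccr3, 56.4 and 34.7 in macrophages, where Ccr3 was also highest. Ccl5 had 5697 and 6247 CPM in NK cells and 1294 and 1214 in mature DCs. The stromal ligands Ccl21a, Cxcl12 and Cx3cl1 were not tested in these cells.

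Of 20 signalling and receptor control genes, 18 were tested. More were higher than lower in the Clec10a/Cd209a gate (8 and 1), the Clec4a4 gate (6 and 0), mature DCs (4 and 1), T cells (7 and 5), NK cells (5 and 3) and macrophages (7 and 6), and fewer in B cells (5 and 7), cDC1s (4 and 5) and the Siglech/Tcf4 gate (1 and 3). All genes also had more higher than lower calls in each class. The shares were 11.9% and 3.33% in the Clec10a/Cd209a gate, 13.8% and 5.20% in the Clec4a4 gate and 16.8% and 11.4% in B cells. They were 16.3% and 4.68% in mature DCs, 16.5% and 10% in T cells and 9.24% and 5.54% in NK cells. Macrophages had 30.7% and 18.2%, cDC1s 19.2% and 10.2% and the Siglech/Tcf4 gate 2.69% and 1.66%. The list median lay between −0.46 in the Siglech/Tcf4 gate and 0.33 in T cells. Klf2, a transcription factor that drives S1pr1, had 279.9 and 320.1 CPM in B cells, 334 and 417 in T cells and 192 and 446 in NK cells. Cd69, which pulls S1pr1 from the surface, had 125 and 181 CPM in B cells and 84.3 and 158 in T cells.

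For each receptor, the genes with the most similar pattern were ranked by the Pearson correlation of log2(CPM + 10) over the 18 class sums. The sums share libraries and depth, so these values describe the classes. Ccr3 was followed most closely, by Adrb1, Abcc3 and Slco2b1 (0.998, 0.998 and 0.997), Xcr1 by Ifi205, 2310031A07Rik and Dbn1 (0.98, 0.98 and 0.96), S1pr1 by Fam169b, Treml2 and Cpm (0.96, 0.96 and 0.95), Gpr183 by Ms4a4c, Hnrnph1 and Arglu1 (0.94, 0.93 and 0.93) and Cxcr3 by Cd226, Inpp1 and Gm2682 (0.93, 0.92 and 0.91). The others had looser company: Cxcr4 with Parp1, Upf3b and Fam76b (0.89, 0.87 and 0.84), Ccr2 with Atp5h, Sema4a and Padi2 (0.88, 0.86 and 0.81), Ccr7 with Gypc, Cd200 and Adcy6 (0.85, 0.82 and 0.82), Cx3cr1 with Tsg101, Mapkapk2 and Nfe2l2 (0.82, 0.82 and 0.81) and Ccr9 with Hspe1, Uggt1 and Cd8a (0.81, 0.80 and 0.79). By Spearman correlation, the top 3 shared 1 gene with these for Ccr2, Ccr9, Xcr1 and Cxcr3 and 0 for the other 6, so the names depend on the measure.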

How the data were processed

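Per the labels and the study's methods, CD11c+ cells enriched from spleens of wild-type animals were made into single-cell libraries on the BD Rhapsody system. The authors deposited, per sample, raw UMI counts for each cell and gene, made with the BD Rhapsody pipeline against GRCm38 with GENCODE annotation, with intronic reads counted and UMIs corrected for sequencing errors. Their processing notes also name R 4.2.3 and Seurat 4.3.0.1. Other mice marked by sample tags were not analysed here.

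Here, cells within 3 scaled median absolute deviations of the mean for UMIs, genes and mitochondrial share, with at least 200 genes, were kept (5653 of 6393). The scaling makes the deviation an estimate of the standard deviation, which widens the window. Counts were summed per class and sample and tested across all genes with edgeR 4.0.16 (quasi-likelihood, TMM factors, R 4.3.3), with all 9 classes in 1 fit, and splits were fitted on their own sums. DESeq2 1.42.0 was an alternative. Other steps used scanpy 1.11.5, scipy 1.17.1, pandas 2.3.3 and numpy 2.4.6 in Python 3.11.15, with matplotlib 3.10.9 for the plots. The tests were checked on simulated data. Doublets were not removed, and Scrublet marked 61 cells (0.954%), which were left out as an alternative. The sums of the replicates differed by more than counting noise (chi-square per degree of freedom 2.57 to 6.96). They hold different cells, and differences between cells also raise this ratio, so it cannot tell whether the samples are independent.

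All classes of a sample come from the same cell suspension, so the sample pairs them. Deviations of the classes from their means correlated from −0.03 to 0.19 over 36 pairs of classes (median 0.04, 9 above 0.1).

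Receptors and lists were chosen with earlier results of these data known. Named genes were the 10 receptors, the 3 most similar genes of each with at least 50 CPM in a class, the listed pathway genes, and the 5 genes with the largest change in each direction of a split, if called, alike in sign in each sample and at 50 CPM or more on the higher side. Asking the Siglech/Tcf4 gate first and leaving that class out were alternatives chosen after seeing the data. Some genes that these rules name are not reported here.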

Additional observations from a re-analysis of the deposited data

Results flagged for a closer look

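The change of Gpr183 with Ccr2 differed between cDC1s and the Clec10a/Cd209a gate by 1.75 on the log2 scale, and that of Ccr9 by −1.47, both by a test of the difference itself. Gpr183 rose in cDC1s with Ccr2 in both samples and was lower in the other class in both samples, but that fall was −0.03 in thinned cells (adjusted p = 0.952 by edgeR) and was not called by DESeq2 or with at least 2 Ccr2 UMIs. The Ccr9 difference was not called in thinned cells.

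Cells that met no gate were outside every comparison but held all 10 receptors. Gpr183 had a mean of 259.6 CPM there (248.7 and 270.5 in replicates 1 and 2), Cxcr4 182 (151 and 213), Ccr7 101 (98.6 and 104), Ccr2 93.9 (92.0 and 95.9) and Cx3cr1 67.6 (65.9 and 69.2). The other receptors were lower, with 16.8 CPM for Xcr1 (18.4 and 15.2), 11.7 for Ccr9 (9.08 and 14.3), 11.4 for Ccr3 (17.9 and 4.93), 3.49 for S1pr1 (2.50 and 4.48) and 2.03 for Cxcr3 (2.50 and 1.57). A count of 0 would allow up to 0.681 and 0.672 CPM in these cells (3 UMIs per sample), and no test was made.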

How the results depend on the processing

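Of 575 combinations of a called receptor value with an alternative, 539 kept direction and call, 34 lost the call and 2 reversed. Of the 63 called values that each sample alone could give, all kept their direction in both, and 29 moved by more than 1.5 times. The cause of the changes below was not tested.

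Counts of called genes moved by more than 1.5 times as follows. The Siglech/Tcf4 class had 547 calls, against 954 in DESeq2 and 2087 with its gate asked first, which gives it more cells. The Ccr2 split of cDC1s had 2271, against 1417 in DESeq2, 1130 in thinned cells and 1507 in cells that met a single gate. The Ccr2 split of the Clec10a/Cd209a gate had 885, against 498 in DESeq2, and the difference of both splits 728, against 440 in thinned cells. The Cd207 split had 854, against 1862 with the sample as a block, 272 in thinned cells and 230 in cells that met a single gate. The Ccr9 split had 0, against 2 without a filter on low counts and 3 with the gate asked first.

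Directions reversed in cells that met a single gate for Xcr1 in mature DCs (−0.94) and against NK cells (−0.56), for Ccr9 between the Siglech/Tcf4 gate and cDC1s (−1.46), for Gpr183 between that gate and mature DCs (−0.41) and for Cxcr4 in the Ccr2 split of cDC1s (−0.20). In thinned cells Cxcr3 reversed in the Cd207 split (−0.048). The Ccr7 difference between the Ccr2 splits turned to 1.02 with at least 2 UMIs, 0.79 in thinned cells and 0.96 with all cells.

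The share of higher genes moved by over 10 points with the scaling in more classes than the report names: from 338 higher and 209 lower to 519 and 97 without TMM factors and 795 and 159 in DESeq2 for the Siglech/Tcf4 gate, from 1161 and 696 to 1535 and 479 without TMM factors for NK cells, and in DESeq2 from 1730 and 653 to 1733 and 1278 for the Clec4a4 gate and from 1492 and 418 to 1605 and 817 for the Clec10a/Cd209a gate. Without TMM factors no receptor changed direction, and 1 call was lost (Ccr7 in NK cells, adjusted p = 0.0567 by edgeR). The sample as a block changed no other call of a difference printed in the report than those given there.

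With 2 samples, 19 cells in 1 class and cells of unequal depth, small differences and low receptors were at the limit of detection.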
